A study of Mus musculus with 8 samples.

Results

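Arterial endothelial nuclei of the adult mouse heart were picked out by the genes they carried, and 1424 of them were found among 37767 nuclei that passed the quality limits. A nucleus counted as a member when at least 2 of 6 genes (Sema3g, Gja5, Mannr, Stmn2, Lama3 and Sox17) had a unique molecular identifier (UMI, 1 counted transcript molecule) and at most 1 of the 3 endocardial genes Npr3, Cytl1 and Tmem108 did. Members also had at least 200 detected genes, under 5% mitochondrial UMIs, under 2% of UMIs from the cardiomyocyte genes Ttn, Ryr2 and Trdn, and no UMI of the fibroblast gene Pdgfra, the macrophage gene Csf1r or the pericyte gene Rgs5. The comparison class, called other endothelial nuclei below, held 5864 nuclei that passed the same nucleus limits, were no members, and had at least 2 of the endothelial genes Flt1, Ptprb, Pecam1, Cdh5 and Erg with at most 1 endocardial and at most 1 lymphatic gene. Members numbered 252 in the library labelled nTg female 1, 341 in Tg female 1, 257 in Tg female 2, 264 in Tg male 1 and 310 in Tg male 2, and values by library are given in this order throughout.

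The study sequenced nuclear RNA of adult mouse hearts in 10x Genomics droplets, with 4 labelled groups of 2 libraries: non-transgenic (nTg, labelled as wild type) females and males, and females and males carrying a cyclin A2 transgene (Tg, labelled Tg-ccna2). The labels used here do not name the promoter that drives the transgene, the strain or the ages, and do not say whether each library is 1 animal, so p-values measure the spread between these libraries, which may be technical. Among the 8 matrices 5 were distinct: the second nTg female matrix repeated the second Tg female one, and each nTg male matrix repeated the Tg male matrix of its number, without the length of its own barcode list. These 3 were not analysed here, which leaves 1 nTg library and no test of genotype.

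Arterial endothelium lines the vessels that carry blood from the heart into the capillary beds, and it bears higher pressure and shear than the endothelium downstream. Its identity is set in development by Notch signalling and by SOX transcription factors, and it keeps a characteristic set of connexins, elastic-fibre genes and guidance molecules. Coronary arteries, arterioles and capillaries form a continuum, and capillary endothelium of the heart is specialised for fatty-acid transport to the muscle.

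The 5 libraries held 25045167 to 38593706 UMIs in 8062 to 10642 barcodes. Members had a median of 2611, 2052, 1848, 2378 and 2148 UMIs, and other endothelial nuclei 2191.5, 1899, 1674.5, 2036.5 and 1963, so members were somewhat deeper in every library. Ccna2, the gene of the transgene, was read first as a check of the labels. In nuclei with at least 2% of UMIs from Ttn, Ryr2 and Trdn it reached 449, 0.448, 800.5, 219 and 145 CPM (a gene's UMIs divided by all UMIs of the nuclei, times 1e6), so the library labelled nTg female 1 carried it and the library labelled Tg female 1 did not. Those 2 libraries go against their labels, and every library is therefore called by its label only. In members Ccna2 had 3, 1, 10, 2 and 2 UMIs. Across all barcodes, 198 occurred in 2 or more libraries, and none of these was shared between members. Called doublets made up 6, 20, 6, 11 and 13 members and were left in, with the values without them computed as an alternative.

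The 6 rule genes chose the members, so their values describe the choice and carry no test. Sema3g, a secreted semaphorin (chr14, 31217860 to 31230352, GRCm38, plus strand), had a UMI in 71.8, 66.9, 52.1, 75.8 and 78.4% of members and in 2.51 to 3.96% of other endothelial nuclei. Its level was 661, 597, 403, 661 and 717 CPM in members and 14.3 to 23.7 CPM in the others. The library labelled Tg female 2 was the lowest of the 5 for Sema3g, on the share and on the level. In CPM of summed nuclei, fewer nuclei with a transcript and fewer transcripts in each nucleus cannot be told apart. Gja5 encodes a connexin of arterial endothelium and the conduction system (chr3, 96904693 to 97077416, plus strand). It had a UMI in 50.8, 43.1, 40.9, 46.6 and 41.9% of members at 371, 348, 325, 347 and 356 CPM, against 1.89 to 7.67 CPM in the other endothelial nuclei, and its level varied little across libraries. Among the 1083 endocardial nuclei, 15 (1.39%) had a UMI of Sema3g and 8 (0.739%) of Gja5. Their median depths were 3244.5, 2699, 2247, 2829.5 and 2879 UMIs. That class had no limit on rule genes and held 20 nuclei with 2 or more of them. Free RNA and nuclei of mixed content therefore cannot be told apart in these shares.

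Mannr is annotated as a long intergenic noncoding RNA (chr3, 29891014 to 29924191, plus strand) whose end lies 27104 bases from Mecom, a transcription factor gene on the opposite strand. It reached 239, 275, 287, 239 and 197 CPM in members and was detected in 39.3, 38.1, 42.4, 36.4 and 34.2% of them. Mecom itself, which the rule did not use, was 2.13 times as high in members as in other endothelial nuclei, with 4443, 4384, 3037, 4347 and 4141 CPM in members and 2086, 1714, 1246, 2161 and 2306 CPM in the others, and the classes did not overlap. Stmn2, a microtubule regulator best known from neurons (chr3, 8509360 to 8561606, plus strand), was detected in 54, 60.4, 54.5, 51.9 and 55.5% of members. Stmn2 had a UMI in 6.23 to 9.52% of other endothelial nuclei, where it and Sox17 were the most often detected of the 6. Lama3, a laminin chain, was found in 56, 51.9, 49, 47.3 and 49.7% of members and 1.69 to 2.98% of the others. Sox17, a SOX transcription factor of arterial specification (chr1, 4490931 to 4497354, minus strand), was found in 59.9, 49.9, 58, 54.5 and 54.5% and 4.93 to 7.49%.

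Promoter sequence is shown for the 3 of these genes that gave the class its most restricted markers and that could be matched, since these genes were read in the same nuclei. Each run is the 250 bases before the RefSeq transcript start on GRCm38.p6, written 5′ to 3′ along the gene, at chr14:31217623-31217872 for Sema3g, chr3:97032152-97032401 for Gja5 and chr3:29890767-29891016 for Mannr, all on the plus strand. Capitals mark a match to the SOX core AACAAT on either strand (ATTGTT on the strand shown).
Sema3g: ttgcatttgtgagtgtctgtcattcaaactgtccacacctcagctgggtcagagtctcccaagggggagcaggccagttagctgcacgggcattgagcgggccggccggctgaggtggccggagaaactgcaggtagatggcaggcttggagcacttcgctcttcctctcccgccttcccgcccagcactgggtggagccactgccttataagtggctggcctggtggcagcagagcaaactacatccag
Gja5: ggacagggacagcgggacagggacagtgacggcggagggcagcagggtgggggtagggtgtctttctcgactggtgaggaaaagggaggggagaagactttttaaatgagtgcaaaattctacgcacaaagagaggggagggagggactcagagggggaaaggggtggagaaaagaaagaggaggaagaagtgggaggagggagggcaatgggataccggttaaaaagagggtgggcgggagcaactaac
Mannr: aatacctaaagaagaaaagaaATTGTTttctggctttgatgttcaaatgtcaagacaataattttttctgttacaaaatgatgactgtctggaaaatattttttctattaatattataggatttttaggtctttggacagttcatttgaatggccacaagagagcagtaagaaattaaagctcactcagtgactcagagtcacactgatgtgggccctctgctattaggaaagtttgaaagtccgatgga

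Of the 10 genes searched, 6 were matched (Sema3g, Gja5, Mannr, Efnb2, Dll4 and Gja4), and Stmn2, Lama3, Sox17 and Hey1 are named only. The RBPJ core TGGGAA, the letters bound by the Notch effector, occurred on either strand in 0 of these 6 promoters and in 21.6% of all 32851 promoters of the same length. The SOX core occurred in 1 of the 6, on the minus strand 229 bases before the Mannr start, and in 9.42% of all promoters. The Sema3g and Gja5 promoters were rich in G and C (60.4% and 56.4%), and that of Mannr was not (34%). A match of letters is a description of this window and was not tied to binding here.

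**Figure D1:**
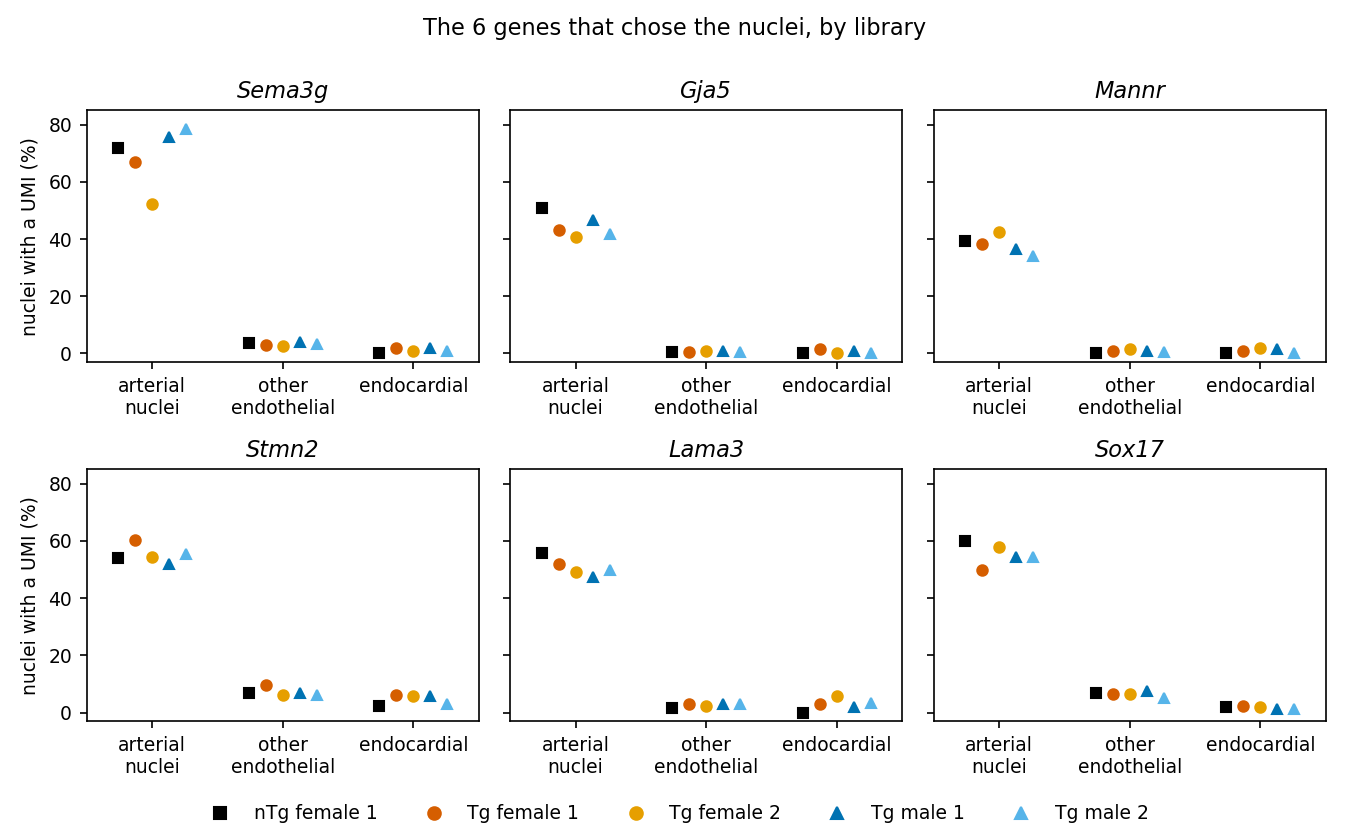
Share of nuclei with at least 1 UMI of each of the 6 rule genes (y axis, percent) in members (arterial nuclei), other endothelial nuclei and endocardial nuclei, 1 point per library. Members lie above both other classes for every gene because the rule chose them so, and Sema3g is lowest in the library labelled Tg female 2 (52.1%).

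Members differed in how many rule genes they carried: 550 had 2, 372 had 3, 313 had 4, 146 had 5 and 43 had all 6. Sema3g and Gja5 occurred together in 474 members (33.3%), and 74.9% of Gja5-positive members also had Sema3g. The pair Stmn2 and Sox17 without any other rule gene accounted for 74 members, the pair Sema3g and Sox17 for 67 and the pair Sema3g and Stmn2 for 61. Just inside the limit lay the 550 nuclei with exactly 2 rule genes, and just outside it the 1249 other endothelial nuclei with 1. The endocardial limit removed 20 nuclei, and 376 members carried exactly 1 endocardial gene, which was Cytl1 in 349 of them, Npr3 in 18 and Tmem108 in 9. The endothelial minimum of the comparison class was also met by 1414 of the 1424 members.

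The label was set beside genes outside the rule. Of 18 further arterial genes listed, 17 were high enough to be considered, 15 were above the other endothelial nuclei in all 5 libraries, and 1, Nrp1, was below in all 5. Over all 7975 genes considered, 12.9% were above and 22.3% below in all 5 libraries, and the counts of this kind for the lists that follow are to be read against these shares. Counting only ratios of at least 2 in every library, 9 arterial genes were higher and 0 lower, where 172 of all 7975 genes considered (2.16%) were higher and 125 (1.57%) lower. With the rule read after thinning to 1000 UMIs, these became 149 higher and 173 lower. The median log2 difference was 1.76 for the arterial list and −0.07 for all genes considered. Against the endocardium, whose nuclei (1083 with at least 2 of the 3 endocardial genes) summed to 2781 to 4576 CPM over 9 other endocardial genes, members summed to 114 to 150.4 CPM. The 10 pan-endothelial genes summed to 8272 to 11885 CPM in members and 5893 to 7779.7 CPM in the other endothelial nuclei. Mecom and Ldb2 carried that difference: 4 genes of the list were above and 5 below in all 5 libraries, with a median log2 difference of −0.08. The 18 arterial genes summed to 4609 to 7028 CPM in members, 2530.5 to 3599.7 CPM in other endothelial nuclei and 2666 to 3682 CPM in endocardial nuclei. These levels go with the arterial label, as a description: the genes had no part in the rule but were read in the same nuclei. The lists were also chosen with earlier results of these data known, so they give no independent check of the label.

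Markers of other cell types were also read in members. The 7 cardiomyocyte markers summed to 1165 to 1645 CPM in members and 1513 to 2100.4 CPM in other endothelial nuclei, and the 8 smooth muscle markers to 111 to 198 and 117 to 208 CPM. The 7 fibroblast markers ran from 229 CPM in Tg male 2 to 1074 CPM in Tg female 2 in members, and from 439 to 1235 CPM in the others. The 6 pericyte markers summed to 33.0 to 115 CPM in members and 70.0 to 96.2 CPM in the others. For the 6 macrophage markers these were 26.1 to 203 and 43.5 to 203 CPM. In the Tg males members were higher for them, at 116 and 149 against 104 and 125 CPM. The 5 Schwann markers summed to 5.5, 52.6, 103, 81.2 and 12.4 CPM in members. In the others they summed to 68.1, 22.9, 35.8, 35.3 and 9.52 CPM, so members were higher outside nTg female 1. The 5 mesothelial markers summed to 65.4 to 106 CPM in members and 54.7 to 93.5 CPM in the others. Adipoq, Cidec and Pck1 among the adipocyte markers and Ms4a1 among the lymphocyte markers were at 0 in members of all 5 libraries. Lymphatic markers summed to 134 to 167 CPM in members and 83.2 to 105 CPM in other endothelial nuclei, whose definition limited 4 lymphatic genes, and 17 members carried more than 1 of those genes.

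To describe how the other genes went with the number of rule genes, members and other endothelial nuclei were thinned to 1000 UMIs each, leaving out shallower ones (214, 45, 15, 8 and 3 nuclei with 0, 1, 2, 3 and 4 to 6 rule genes). This left 4401, 1204, 535, 364 and 499 nuclei, and shares of nuclei with a UMI are given in that order, with exact binomial intervals that cover counting error only. The number of rule genes was counted before thinning, so the groups themselves were not matched for depth. Their medians, shallower nuclei included, were 1940, 2026, 1925.5, 2175 and 2490.5 UMIs. Jag1, a Notch ligand, was detected in 3.77, 10.1, 20.7, 35.2 and 40.3%. Fbln5, an elastic-fibre assembly protein, was detected in 0.841, 4.4, 15.5, 28.3 and 32.3%, and Bmx, a tyrosine kinase of arterial endothelium, in 1.23, 4.15, 13.6, 24.2 and 29.1%. All 3 were higher at each further rule gene. In percentage points the largest step lay between 2 and 3 rule genes, inside the members. For Fbln5 and Bmx it was close to the step between 1 and 2, where membership begins, and their order was not tested. As a fold, the step between 1 and 2 was larger than that between 2 and 3 for all 3 genes.

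Sox13 stayed near its base in nuclei with 1 rule gene and was higher from 2 on, with 11.4, 13.6, 26.5, 37.6 and 40.3%. Vegfc, a ligand of the VEGF receptor family, showed 20.1, 25.7, 38.1, 53 and 57.7%, and Tm4sf1, a membrane protein of endothelial adhesion, 14.8, 25.7, 43.4, 53 and 51.3%. Tm4sf1 was at about the same share with 3 and with 4 to 6 rule genes, 53% (95% interval 47.8 to 58.2) and 51.3% (95% interval 46.8 to 55.8). Endocardial nuclei carried Tm4sf1 as well, at 384 to 1413 CPM, against 426 to 1012 CPM in members. Efnb2, the arterial ephrin, went from 11.9% (95% interval 10.9 to 12.9) with 0 rule genes to 26.5% (95% interval 22.8 to 30.5) with 2 and was no higher with more, at 24.2% (95% interval 20.6 to 28.3) with 4 to 6. Hey1, a Notch target, followed the same course at a lower share, with 1.02, 2.99, 6.73, 8.24 and 6.21%.

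Capillary genes ran the other way. Aqp1, the water channel of capillary endothelium, was detected in 49.4, 36.4, 11.4, 3.57 and 4.81% of nuclei with 0, 1, 2, 3 and 4 to 6 rule genes. Lpl and Gpihbp1, the lipase of triglyceride-rich particles and its anchor on capillary endothelium, showed 56, 51.2, 32.5, 21.4 and 14.8% and 40.7, 35.7, 26, 18.1 and 11.4%. Cd36, the fatty-acid transporter, was lower but far from lost, with 83.4, 80.8, 66, 54.7 and 52.7%, and Fabp4, the fatty-acid binding protein, showed 71.7, 68.9, 56.6, 44.8 and 39.9%. Nuclei with exactly 2 rule genes therefore lay between the others and the nuclei with 4 to 6 for each of these 5 capillary genes, as they did for Jag1, Fbln5 and Bmx. Nr2f2, the venous transcription factor, was rare throughout and lowest where rule genes were most, at 7.02% (95% interval 6.28 to 7.82) with 0 and 0.401% (95% interval 0.0486 to 1.44) with 4 to 6.

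**Figure D2:**
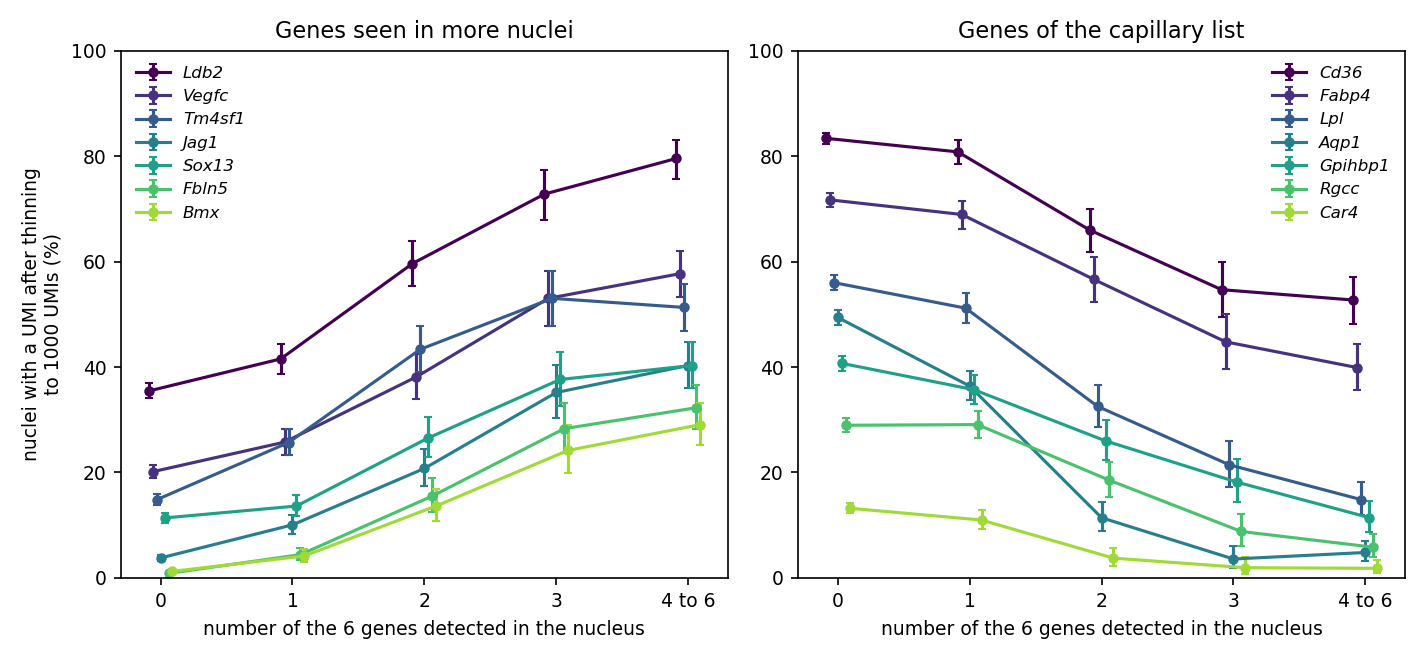
Share of nuclei with a UMI after thinning to 1000 UMIs (y axis, percent) against the number of rule genes detected before thinning (x axis, 0 to 4 or more). Shown are 7 genes seen in more nuclei (left) and 7 capillary genes (right), with exact 95% binomial intervals as bars. Jag1 goes from 3.77% to 40.3% and Aqp1 from 49.4% to 4.81%, with intermediate shares between them.

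The 5 genes whose detection was higher by most in members than in nuclei with 0 rule genes, after thinning, were Nebl, Arl15, Eln, Ldb2 and Cdk19. Nebl encodes nebulette, an actin-binding protein known from the cardiac Z-disc, and went from 3.32% to 55.4%. By library its share was 53.4, 54.6, 53.3, 52.7 and 61.8% in members and 3.43, 5.81, 7.09, 5.64 and 7.71% in other endothelial nuclei, so it separated the classes about as well in every library. Its level was 1500.2, 1528, 1143, 1543 and 1805 CPM in members and 70.0 to 177 CPM in the others. Arl15, a small GTPase, went from 43.7% to 88.1%, Eln, the elastin gene, from 15.6% to 52.9%, Ldb2, a cofactor of LIM-domain transcription factors, from 35.4% to 70.2%, and Cdk19, a kinase of the Mediator complex, from 13.2% to 47.4%. Differences larger than those of Eln, Ldb2 and Cdk19 lay in the opposite direction, among them those of Hdac9, a class IIa histone deacetylase, from 61.7% to 10.4%, and Tmtc2, from 56.5% to 14.3%. These pairs of values share the nuclei and their libraries and say nothing of a shared function.

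The genes of the Notch pathway, which sets arterial fate, were higher in members as a group without many large ratios. Of 15 considered, 8 were above the other endothelial nuclei in all 5 libraries and 1 below, with a median log2 difference of 0.56 beside −0.07 for all genes considered. Among ligands, Jag1 was 8.04 times as high, with 415, 467, 412, 459.8 and 381 CPM in members and 47.7 to 61.9 CPM in the others. Dll4, the other arterial ligand, was 1.61 times as high, with 117, 86.8, 97.3, 92.8 and 124 CPM against 60.1, 73.9, 52.2, 68.2 and 63.3 CPM. The Jag1 levels of the classes lay far apart, and those of Dll4 close together. The Notch list shares genes with the arterial list, Jag1 and Hey1 among them. Likewise the connexin, transcription factor and vasomotor lists below share Gja4, Sox13 and Edn1 with it.

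Of the receptors, Notch1 was 1.68 and Notch4 1.72 times as high in members, with library ratios of 1.16 to 2.00 and 1.51 to 2.05. Hey1, the target, had 49.5, 68.5, 95.5, 62.4 and 73 CPM in members and 9.83 to 18.5 CPM in the others, a ratio of 4.98. Lfng, a glycosyltransferase that modifies Notch receptors, was the one Notch gene at least 2-fold lower in all 5 libraries, at 12.4, 9.78, 1.77, 11.6 and 11.1 CPM against 37.1, 28.1, 15.9, 29.2 and 34.4 CPM. The share of genes considered that met the 2-fold limit was 2.16% upward and 1.57% downward, and Jag1, Hey1 and Lfng were the 3 of 15 Notch genes that met it.

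Guidance genes were split. Of 21 considered, 7 were above and 10 below in all 5 libraries (median log2 −0.51). Efnb2 was 2.02 times as high in members, with 281, 399.8, 258, 305 and 343 CPM against 139, 187, 171, 162 and 139 CPM, and the library ratios ran from 1.51 to 2.46. Ntn1, the guidance cue netrin, was 2.96 times as high and met the 2-fold limit. Nrp2, a semaphorin and VEGF coreceptor of venous and lymphatic endothelium, was at 131, 153, 225, 91.4 and 89.1 CPM in members and 587, 722, 733, 643 and 627 CPM in the others. Nrp1, the coreceptor usually linked to arteries and a high-abundance gene in heart endothelium, was lower in members, at a ratio of 0.642, with 807, 1120.1, 791, 619 and 734 CPM against 1198, 1680.2, 1133, 1207 and 1117 CPM. For both coreceptors the members of each library lay below its other nuclei.

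Connexins differed gene by gene. Gja4, another connexin of arterial endothelium, had 48.1, 78.3, 47.8, 58 and 30.9 CPM in members and 4.97 to 7.53 CPM in the others, a ratio of 8.22. Gja1, the ubiquitous cardiac connexin, was at a ratio of 0.909, and Gjc1 at 0.58. Gja4 was thus the one of the 4 connexins considered that met the 2-fold limit.

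Among 16 SOX, ETS and other transcription factors, 6 were above and 9 below in all 5 libraries. Sox13 had 392, 479, 379, 439 and 453 CPM in members against 98.3, 139, 163, 116 and 132 CPM, and Gata2, an endothelial GATA factor, 219, 179, 157, 248 and 230.2 CPM against 90.4, 60.3, 76.2, 95.2 and 94.4 CPM. Sox4 ran the other way, with 2.75, 4.89, 12.4, 4.35 and 2.48 CPM in members and 21.6, 30.8, 36.3, 15.7 and 11.2 CPM in the others. Prdm16, a chromatin-modifying transcription factor not on the list, was 13.6 times as high, with 428, 573, 391, 511 and 418 CPM in members and 24.6 to 44.2 CPM in the others.

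The elastic-fibre list had the highest median after the arterial list, with which it shares Fbln5. Of 10 considered, 7 were above and 3 below in all 5 libraries (median log2 1.39), and 4 met the 2-fold limit upward. Eln reached 1219.7, 1273, 1224, 2186 and 2086 CPM in members against 259 to 337 CPM in the others. Both Tg male libraries were above all 3 female libraries for Eln, but this difference between sexes was not called (log2 −0.82, SE 0.25, adjusted p = 0.284, edgeR). Fbln5 had 385, 352, 226, 364 and 299.5 CPM against 17.5 to 27.7 CPM, a ratio of 16. Fbln2 was 3.89 times as high. Lox, the enzyme that cross-links elastin and collagen, had 24.8, 34.2, 14.1, 26.1 and 29.7 CPM in members and 0.756, 1.71, 0, 0.614 and 2.9 CPM in the others. Lox had no UMI in the other nuclei of Tg female 2, so no fold is given.

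Basement-membrane genes went the other way as a group, with 4 of 14 above and 10 below in all 5 libraries (median log2 −0.73). The integrin chains divided: Itga3 was 3.1 and Itgb4 4.58 times as high in members, and Itga6 was at 0.422 of the other nuclei. Itgb4 had 46.8, 63.6, 42.4, 71.1 and 42.1 CPM in members and 9.83, 11, 15.3, 11.7 and 11.6 CPM in the others, and Itga6, its usual partner, 198, 249, 169.8, 187 and 165 and 447, 547, 394, 498 and 394 CPM. Lama3, which chose the members, is a chain of the laminins that these integrins bind.

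Genes of vasomotor control went both ways, with 4 higher and 4 lower at 2-fold in all libraries of 15 considered. Edn1, the vasoconstrictor endothelin, had 55, 92.9, 79.6, 65.3 and 115 CPM in members and 9.83, 24.6, 22, 11.4 and 15.3 CPM in the others. Kcnn4, a calcium-activated potassium channel, and Trpv4, a calcium channel, were 9.94 and 5.37 times as high, and Ace, the angiotensin-converting enzyme, 3.62 times. Nos3, the endothelial nitric oxide synthase, was 1.55 times as high, with 301, 289, 226, 341 and 269.8 CPM against 166, 204, 162, 189 and 199 CPM. Nostrin, which binds that synthase, was at 0.237 of the other nuclei, Calcrl, a receptor of adrenomedullin and CGRP, at 0.323, and the prostaglandin enzymes Ptgis and Ptgs1 at 0.351 and 0.35.

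The BMP and TGF-beta list held 9 genes above and 2 below in all 5 libraries of 14 considered (median log2 0.45). Smad6, an inhibitory SMAD induced by BMP signals, had 604, 366, 309.5, 563 and 604 CPM in members and 65.1, 70.9, 75.2, 77.4 and 77.4 CPM in the others. Smad7, the other inhibitory SMAD, was 2.43 times as high, Acvrl1, a receptor of the pathway, 2.04 times, and Bmp6, a ligand, was at 0.318. Inhibitors and receptor were thus higher, and this ligand lower, in members.

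Capillary genes were lower in members without exception in these libraries: all 12 were below the other endothelial nuclei in all 5 (median log2 −1.12), and Car4, Aqp1 and Aplnr met the 2-fold limit. Aqp1 had 124, 110.0, 120.3, 123 and 162 CPM in members and 1013, 806, 414, 1103 and 987 CPM in the others, a ratio of 0.144, and the library labelled Tg female 2 had the lowest level among the others. Aplnr, the apelin receptor, had 8.25, 19.6, 10.6, 10.2 and 7.43 against 59, 112, 61.9, 51 and 54.2 CPM, and Car4, a membrane carbonic anhydrase, 44, 20.8, 38.9, 24.7 and 58.2 against 155, 117, 101, 145 and 199 CPM. All 10 genes of fatty-acid uptake that were considered, Cd36, Fabp4, Gpihbp1 and Lpl of the capillary list among them, were also below in all 5 libraries, with none at 2-fold (median log2 −0.89). The genes of the venous list showed no common direction, with 2 of 8 above and 3 below in all 5 libraries (median log2 −0.01), and Il1r1, the interleukin receptor, met the limit downward at 0.32. Vwf, a venous marker that arteries also carry, was at 289, 136, 106, 116 and 158 CPM in members and 161, 192, 90.0, 164 and 134 CPM in the others, with no common direction. The 10 listed venous genes summed higher in members of every library, at 2029 to 3684 CPM against 1529 to 2166 CPM, and most of that sum in members was Mgp in 4 of the 5 libraries.

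Over all genes outside the rule with at least 50 CPM in the higher class, 15 were named by the size of their ratio. Of these, 4930573H18Rik is annotated antisense across Gja5 (chr3, 97046656 to 97092785) and Gm33206 across the start of Mannr (chr3, 29773466 to 29893177), both on the minus strand, so their reads may not be separable from those of these rule genes. The transcript Gm38477 was 33.3, 4930573H18Rik 28.7 and Gm33206 20.6 times as high in members. Gkn3, a gastrokine, had 33, 79.5, 26.5, 87 and 43.3 CPM in members and 1.13 to 4.11 CPM in the others. Prom1, a membrane glycoprotein of cell protrusions, had 129, 51.4, 37.1, 79.8 and 97.8 CPM and a ratio of 19. Gkn3 and Prom1 varied more than 2-fold between libraries within members, and still lay above the other nuclei in each.

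Atp2a3, a calcium pump of the endoplasmic reticulum, had 239, 204, 156, 259.6 and 203 CPM in members and 7.57 to 14.7 CPM in the others. Atp2b2, a calcium pump of the plasma membrane, was 18.7 times as high, with 53.2 to 89.4 CPM in members. Plcg2, a phospholipase that acts upstream of calcium release, was 15.2 times as high, with 195, 234, 216, 241 and 146 CPM. The remaining genes of the top 15 were Ptchd1 (17.1), Fbln5, Prdm16, Nebl, Eps8l2, an actin regulator (12.4), Bmx (12) and Enpp6, a choline phosphodiesterase (11.5), each given as the ratio of pooled CPM where not given above. Bmx had 279, 285, 309.5, 347 and 287 CPM in members and 11 to 41.9 CPM in the others. Endocardial nuclei carried more Bmx than members, at 413 to 891 CPM.

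Among the lowest ratios were those of G630055G22Rik (0.101), the potassium channel Kcnc2 (0.105), Samd5 (0.141), Aqp1, the adenosine receptor Adora2a (0.147), the LIM homeobox factor Lhx6 (0.154), the cadherin Cdh11 (0.154), Hdac9 (0.163), Fmo1 (0.163), Aplnr, Nckap5 (0.167), Rps6kl1 (0.171), Trp53i11 (0.173) and the adhesion gene Sdk1 (0.179). Hdac9 had 348, 326, 246, 284 and 282 CPM in members and 1927, 1761, 1255, 2208 and 1837 CPM in the others. Each library repeated this gap, and the library labelled Tg female 2 had the lowest Hdac9 level of both classes.

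**Figure D3:**
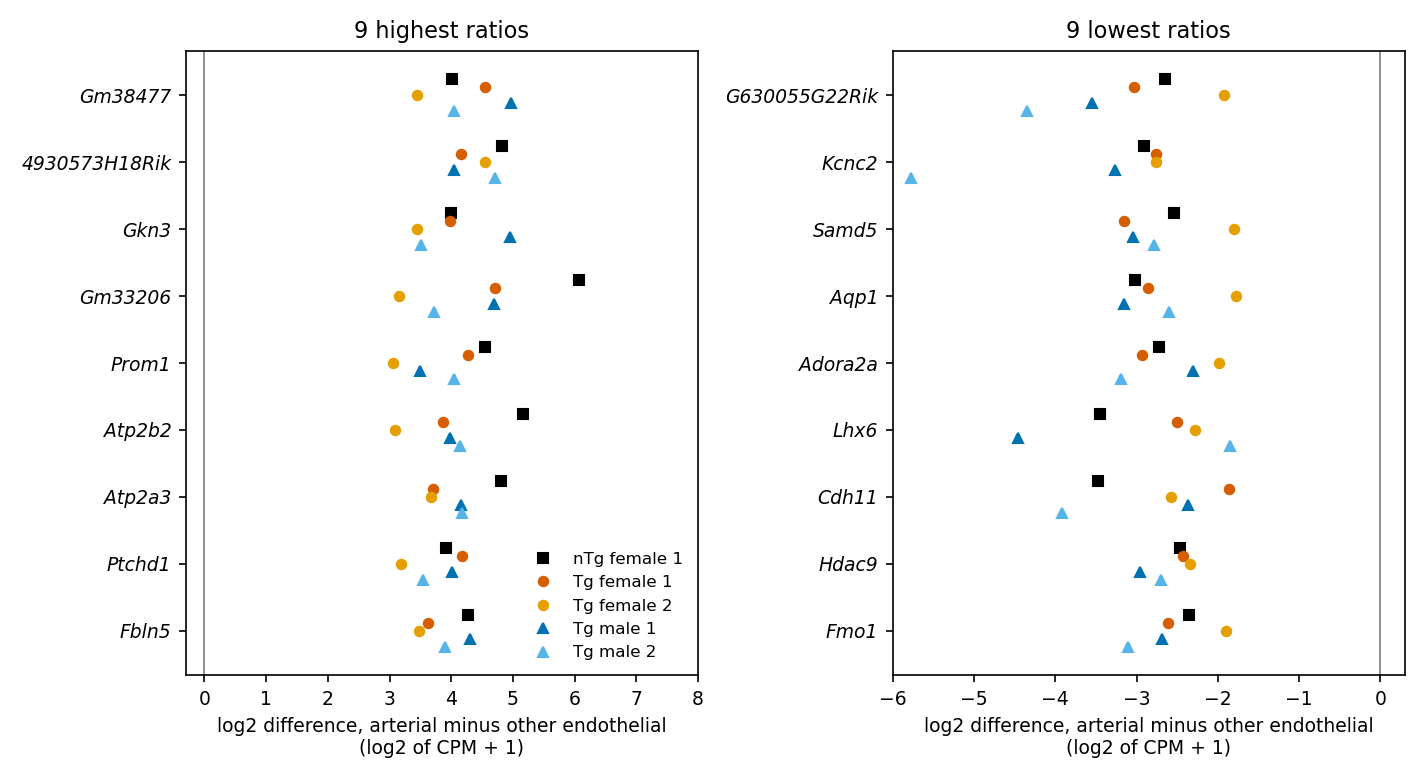
Difference of log2 of CPM plus 1 between members and other endothelial nuclei (x axis), 1 point per library, for the 9 genes with the highest (left) and the 9 with the lowest ratios (right). On the left all points lie above 0 and on the right all lie under it. The 5 libraries of a gene spread over up to several log2 units, as for Lhx6, whose counts in members are low. For Kcnc2 the spread is that of Tg male 2, with 3.71 CPM in members against 33.6 to 47.7 CPM in the other libraries.

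Among the lists that gave no gene past 2-fold in either direction were, beside fatty-acid uptake, the glucocorticoid-response list (11 considered), the circadian clock list (11) and the immediate early genes (7). Of the 10 pan-endothelial genes only Ldb2 met it, at 3.38.

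Members were divided further by Cytl1, an endocardial gene of the rule that 349 of them carried; the division was chosen after its values were seen and is a description only. Cytl1, a small secreted protein, had a UMI in 26.2, 25.8, 17.9, 31.1 and 21.6% of members. Cytl1-positive members were deeper, with medians of 2936, 2290.5, 2008, 2662.5 and 2280 UMIs against 2478, 2003, 1785, 2278.5 and 2127, and the part of depth in what follows was not tested. Of 4384 genes with at least 50 CPM in 1 of the classes, 97 (2.21%) were at least 2-fold higher with Cytl1 in all 5 libraries and 75 (1.71%) lower.

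Of the elastic-fibre list, Eln, Mgp and Lox met this limit upward. Others were near parity or lower with Cytl1, with ratios of 1.05 for the fibrillin gene Fbn1, 1.1 for Ltbp4 and 0.36 for Ltbp1, which bind latent TGF-beta. Eln had 2275, 2778, 3290.4, 4283 and 5647 CPM with Cytl1 and 798, 667, 782, 1099 and 1150.2 CPM without. Mgp, an inhibitor of calcification, had 5316, 3695, 2317, 5886 and 5641 CPM with Cytl1 and 575, 417, 741, 771 and 366 CPM without. Vwf, the von Willebrand factor gene, and Vcam1, the leukocyte adhesion molecule, were 3.98 and 8.62 times as high. For Eln and Mgp the lowest library with Cytl1 lay above the highest without. Other genes of the venous list went the other way or showed no gap, with ratios of 0.463 for Nr2f2, 0.621 for the receptor gene Ephb4 and 0.761 for Il1r1. Lox was 4.91 times as high, Bmx 3.48 times, Nos3 2.59 times, and the potassium channels Kcnn4 and Kcnn3 5.33 and 3.56 times.

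The largest ratios belonged to the secreted serine peptidase genes Klk11 (23) and Klk10 (16.1). Klk10 had 91.6, 158, 70.2, 80.7 and 89.3 CPM with Cytl1 and 3.13 to 10.7 CPM without. Esr1, the oestrogen receptor alpha gene, had 183, 213, 201, 144 and 167 CPM with Cytl1 in libraries of both sexes, and 13.5, 15.4, 17.2, 30.8 and 0 CPM without. Hey2, a Notch target, had 57.8, 59.7, 100.3, 42.5 and 77.4 CPM with Cytl1 and 3.85, 10.3, 8.59, 8.81 and 6.25 CPM without, while its relative Hey1 ran the other way, with 19.3, 21.3, 20.1, 21.2 and 23.8 CPM and 61.6, 87.5, 112, 83.7 and 86 CPM. The 2 Hey genes thus marked opposite sides of the same division in every library.

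Capillary genes were lower in Cytl1-positive members. Cd36 had 284, 384, 261, 433 and 518 CPM with Cytl1 and 3042, 1665, 1278, 2380.3 and 2464 CPM without. Cxcl12, a chemokine of arterioles and arteries, had 38.6, 42.6, 90.3, 55.2 and 113 CPM with and 458, 434, 234, 388 and 403 CPM without, with the smallest gap in Tg female 2. Unc5b, a netrin receptor, and Igfbp3, an IGF binding protein, were at 0.123 and 0.105 of their level without Cytl1, and Alox12, a lipoxygenase, at 0.0832. Summed over 12 capillary genes the levels were 1184 to 1601 CPM with Cytl1 and 3513 to 6741 CPM without, and over the fatty-acid uptake genes 963 to 1422 and 3277 to 6056 CPM.

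The rule genes differed less between the subsets, with ratios of 1.14 for Sema3g, 1.78 for Gja5, 0.807 for Mannr, 0.967 for Stmn2, 1.1 for Lama3 and 0.838 for Sox17. Fbln5 was at 0.998 and Jag1 at 1.78. Beside Cytl1, the 9 other endocardial genes listed summed to 70.2 to 183 CPM with Cytl1 and 123 to 161 CPM without, against 2781 to 4576 CPM in endocardial nuclei, and Cdh11 was at 7.41 and 12.8 CPM. Mean CPM was compared between endocardial nuclei and all members. Vwf (1337 and 161), Vcam1 (569 and 153), Mgp (3192 and 1657) and Bmx (606 and 301) were higher in endocardial nuclei. Cd36 (493 and 1685) and Cxcl12 (34.9 and 297), lower with Cytl1, were lower there too. Jag1 (48.9 and 427), Nr2f2 (172 and 21.7), Ephb4 (189 and 114) and Il1r1 (95.5 and 52.3) went the other way. Hey2 (16.3 and 22) was lower in endocardial nuclei than in all members, which include those with Cytl1. Its endocardial levels, 12.6 to 21.6 CPM by library, lay above those given for members without Cytl1. The part of the endocardium in this division was not tested.

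**Figure D4:**
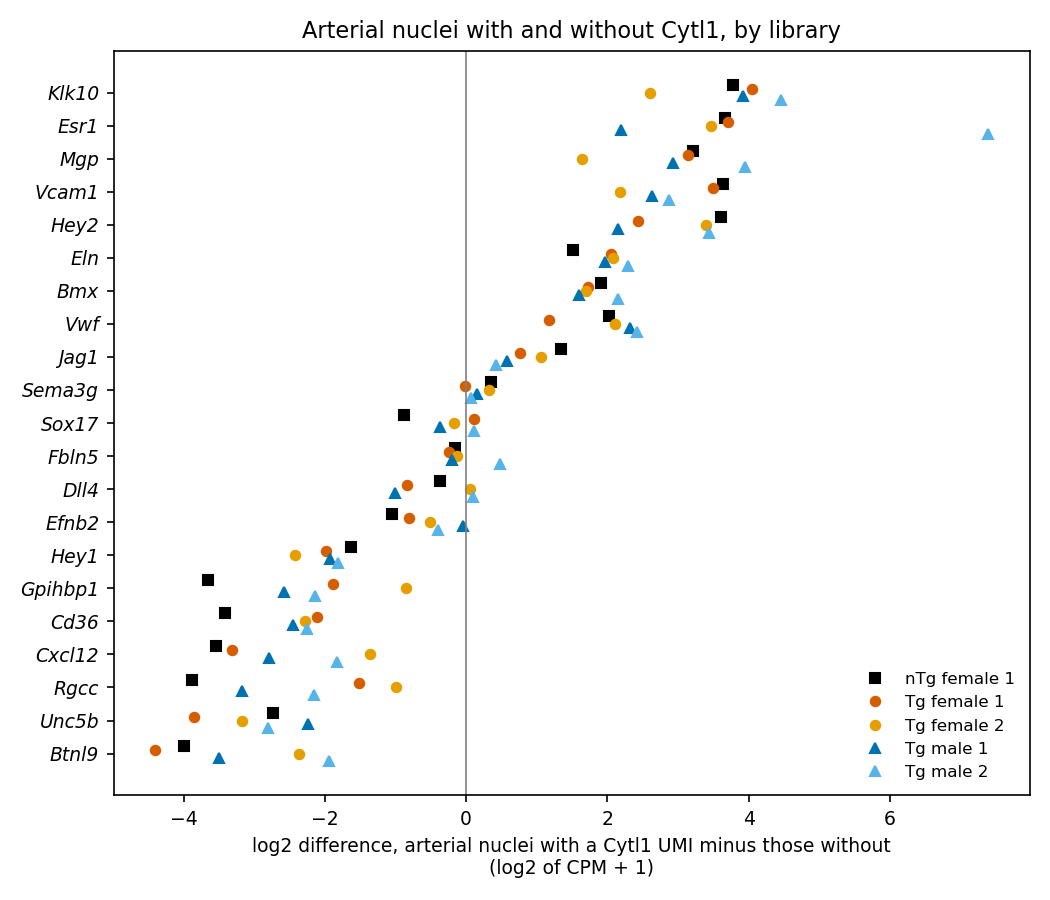
Difference of log2 of CPM plus 1 between members with and without a Cytl1 UMI (x axis), 1 point per library, for 21 genes (y axis). Mgp, Eln, Klk10 and Hey2 lie higher with Cytl1 in all 5 libraries, and Hey1, Cd36 and Cxcl12 lower.

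Members made up 19.1% (95% exact interval 17.1 to 21.4), 19.99% (18.1 to 22), 20.5% (18.3 to 22.8), 16.2% (14.5 to 18.1) and 22.4% (20.2 to 24.7) of members plus other endothelial nuclei. The lowest and the highest share were both in the Tg male group, and the Tg female libraries lay between them. Tg females had 20.2 ± 0.346% and Tg males 19.3 ± 4.35% (SD, n = 2 each), a difference of 0.924 points with a two-sided exact permutation p of 1, where 2 against 2 cannot go below 0.33. A share depends on which nuclei were recovered and how deeply they were read, as well as on the tissue. With the rule read after thinning to 1000 UMIs, the shares were 11.8, 14.1, 15.6, 10.7 and 15.9%. The difference between Tg females and Tg males was then 1.51 points.

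Between Tg female and Tg male libraries, 11 of 9275 genes tested in members (0.119%) passed an adjusted p of 0.05 in edgeR's quasi-likelihood test, 3 higher and 8 lower in females, and 781 had an unadjusted p under 0.05. Leaving out 1 library gave 238 calls (without Tg female 1), 218 (without Tg female 2), 79 (without Tg male 1) and 35 (without Tg male 2). Of the 11, 6 were sex-linked transcripts. Xist was at least 549-fold higher in the Tg female libraries against a floor of 3 UMIs over the male group, and Tsix, its antisense partner, was higher too, though reads of the pair may not be separable. Ddx3y, Eif2s3y and Kdm5d on the Y chromosome were at least 36.3-, 39.1- and 15.1-fold lower in females, and Uty was lower as well (log2 −8.01, SE 0.482, adjusted p = 4.47e-07, edgeR). These match the sex labels of all 4 libraries, and the library labelled nTg female 1 lay with the females.

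The autosomal calls were Tgfb2, Fkbp5, Zbtb16, Nav2 and Rgcc. Fkbp5, a chaperone induced by glucocorticoids (chr17, 28399094 to 28517527), had 421, 66, 139.7, 471 and 491 CPM in members. Tg females had 103 ± 52.1 CPM (SD, n = 2) against 481 ± 14.1 CPM (SD, n = 2) in Tg males, a log2 difference of −2.30 (SE 0.3001, adjusted p = 0.0036), edgeR. Both Tg female libraries lay below both male ones, and the library labelled nTg female 1 lay near the males. Tgfb2, a TGF-beta ligand (chr1, 186622792 to 186705989), had 22, 128, 83.1, 21.8 and 19.8 CPM, with 106 ± 32 CPM (SD, n = 2) against 20.8 ± 1.38 CPM (SD, n = 2) in Tg males, a log2 difference of 2.32 (SE 0.322, adjusted p = 0.0057), edgeR. Here too the value of the nTg female library was close to that of the males.

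Zbtb16, Nav2 and Rgcc are named after their values were seen. Zbtb16, a zinc-finger transcription factor, had 1698, 395, 683, 1903 and 1769 CPM (log2 −1.82, SE 0.288, adjusted p = 0.0186, edgeR). Rgcc, a regulator of the cell cycle on the capillary list, had 323, 70.9, 92, 193 and 248 CPM (log2 −1.50, SE 0.247, adjusted p = 0.0256, edgeR). The nTg female library was near the males for Zbtb16 and above them for Rgcc, and Rgcc was not called without Tg male 2 (log2 −1.29, adjusted p = 0.0522, edgeR). Nav2, a cytoskeletal guidance protein, had 205, 116, 136, 413 and 299.5 CPM (log2 −1.54, SE 0.243, adjusted p = 0.0186, edgeR), and the nTg female library lay between the groups and nearer the females. When that library was added with no genotype term, none of these 5 was called, with log2 differences of 1.88 for Tgfb2 (adjusted p = 0.854) and −1.21 for Fkbp5 (adjusted p = 0.919, edgeR), and all kept their sign. The nTg female library lay on the male side for 4 of these 5 genes, and since the library labelled Tg female 1 lacked Ccna2, sex and other differences between libraries cannot be told apart here.

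The 6 rule genes gave 0 calls between sexes, with a lowest adjusted p of 0.631, and the 17 arterial genes tested gave 0 with 2 at an unadjusted p under 0.05 (edgeR). Of 11 glucocorticoid-response genes, 0 were higher in Tg females by sign, 2 were called lower and 5 had an unadjusted p under 0.05. Of 11 capillary genes, 2 were higher by sign, 1 was called lower (Rgcc), 6 had an unadjusted p under 0.05, and the median log2 difference was −0.58. Over all 9275 genes tested, 4695 were higher in Tg females by sign, 781 had an unadjusted p under 0.05 and 0.119% were called (edgeR). Fibroblast markers moved with sex in the same members: 6 of 6 tested were higher in Tg females, each with an unadjusted p under 0.05 and none called (lowest adjusted p = 0.0843, edgeR), and the 7 listed markers summed to 407, 539, 1074, 344 and 229 CPM by library. Their part in the sex differences was not tested.

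**Figure D5:**
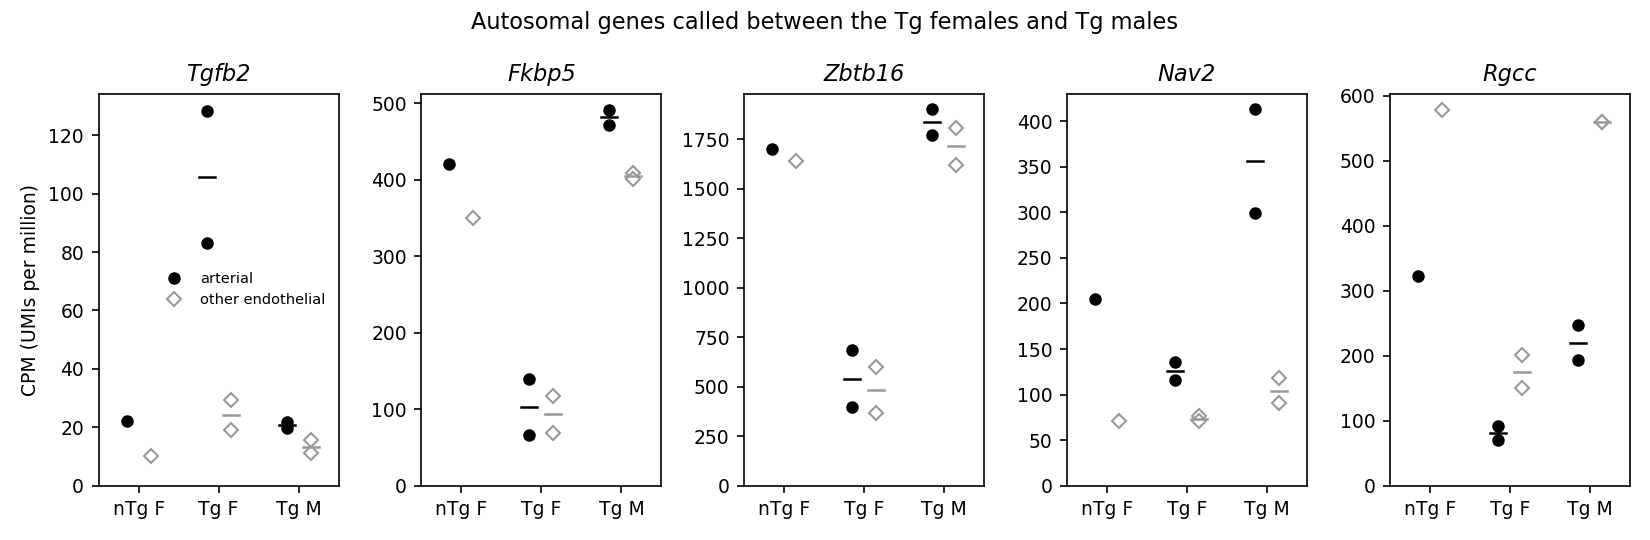
CPM (y axis, from 0) of the 5 autosomal genes called between Tg females and Tg males, in members (filled) and other endothelial nuclei (open), 1 point per library, with lines at the means of the 2 libraries of a group. The library labelled nTg female 1 lies with the Tg males for Fkbp5, Zbtb16 and Tgfb2.

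The sex differences were compared between members and other endothelial nuclei by an interaction term with the library as a block. Fkbp5 in the other nuclei had 350.3, 69.5, 118, 409 and 401 CPM, and the interaction was −0.13 (SE 0.186, adjusted p = 0.968), edgeR. For Zbtb16 it was 0.07 (SE 0.12, adjusted p = 0.973) and for Rgcc 0.26 (SE 0.202, adjusted p = 0.915), so no difference between the classes was detected for these 3 genes. For Tgfb2 it was 1.51 (SE 0.367, adjusted p = 0.241) and for Nav2 −0.99 (SE 0.195, adjusted p = 0.0807), which did not pass either.

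The interaction passed for 9 of 12180 genes tested (0.0739%, edgeR, adjusted p under 0.05), with 747 at an unadjusted p under 0.05, and DESeq2 called 1. Leaving out 1 library gave 56 (without Tg female 1), 13 (without Tg female 2), 58 (without Tg male 1) and 40 (without Tg male 2). Mgp had 1928, 1357, 1019, 2516 and 1463 CPM in members and 285, 436, 565, 380.0 and 279.9 CPM in the others, so the gap between classes was smaller in both Tg female libraries than in both male ones (interaction log2 −1.29, SE 0.184, adjusted p = 0.00869, edgeR). With the rule read at 1000 UMIs this was −0.52 and not called (adjusted p = 0.448, edgeR). The share of Cytl1-positive members, in which Mgp was higher, was 25.8% and 17.9% in the Tg female and 31.1% and 21.6% in the Tg male libraries, and its part was not tested. Efna5, an ephrin ligand, had 627, 684, 640.3, 944 and 562 CPM in members and 62.8, 136, 116, 77.1 and 42.2 CPM in the others. Its interaction was −1.25 (SE 0.157, adjusted p = 0.00402), edgeR, and the groups overlapped within members but not within the others.

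Fn1, the fibronectin gene, had 263, 258, 202, 290.1 and 352 CPM in members and 40.1, 81.8, 83.4, 47.3 and 48.4 CPM in the others (interaction log2 −1.23, SE 0.198, adjusted p = 0.0175, edgeR), and it was not called without Tg female 2 (−1.06, adjusted p = 0.0555, edgeR). Mical2, an actin-oxidising enzyme, was higher in members of Tg males, with 256, 148, 129, 271 and 250.01 CPM, and hardly varied in the others, with 194, 164, 154, 153 and 121 CPM (interaction log2 −1.11, SE 0.182, adjusted p = 0.0185, edgeR). Adamts9, a matrix protease, showed the reverse, with 210.4, 346, 343, 181 and 159.7 CPM in members and 368, 459, 398, 429.8 and 499 CPM in the others (interaction log2 1.15, SE 0.17, adjusted p = 0.00869, edgeR). For Mical2 and Adamts9 the members of Tg females and males did not overlap, and the nTg female library lay nearer the males.

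The library labelled nTg female 1 was set beside the 2 Tg female libraries with no test, since it has no replicate. Of 4094 genes with a mean of at least 50 CPM in members, 60 (1.47%) were at least 2-fold above or below both, 23 higher and 37 lower. Markers of other cell types moved with this comparison: in members of nTg female 1, Tg female 1 and Tg female 2 the fibroblast markers summed to 407, 539 and 1074 CPM, the macrophage markers to 26.1, 69.7 and 203 CPM, the pericyte markers to 33.0, 61.1 and 115 CPM, the Schwann markers to 5.5, 52.6 and 103 CPM and the lymphocyte markers to 4.13, 53.8 and 15.9 CPM. These 5 sums were lowest in the nTg library, as was that of the smooth muscle markers (111, 141 and 198 CPM). The cardiomyocyte (1645, 1165 and 1514 CPM), mesothelial (100.4, 89.3 and 65.4 CPM) and adipocyte markers (2.75, 0 and 0 CPM) were highest there. The part of these markers in the 60 genes was not tested. The same count was 28 for Tg female 1 and 46 for Tg female 2, each against the other 2 libraries. It became 192 for the nTg library without Tg female 1, 135 without Tg female 2 and 12 against all 4 Tg libraries. By the ranking of ratios, the lowest genes were the cation channel gene Trpm3 (5.5 CPM against 163 and 12.4 CPM), the adhesion gene Csmd1 (9.63 CPM against 58.7 and 187 CPM), the sarcoglycan gene Sgcd (9.63 CPM against 96.6 and 83.1 CPM), the ankyrin gene Ank3 (12.4 CPM against 57.5 and 97.3 CPM) and the protocadherin gene Pcdh7 (19.3 CPM against 90.5 and 126 CPM). For Trpm3 the Tg libraries themselves differed more than 10-fold.

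The highest were Lpin2, a phosphatidate phosphatase (179 CPM against 29.3 and 44.2 CPM, a ratio of 4.86), Fkbp5 (4.09), Rgcc (3.97), Rbp7, a retinol-binding protein (333 CPM against 121 and 56.6 CPM), and Acer2, a ceramidase (685 CPM against 181 and 186 CPM). In other endothelial nuclei all of these were higher in the nTg library too. Lpin2 had 192 against 60.6 and 76.7 CPM there, and Fkbp5 350 against 69.5 and 118 CPM. Rgcc had 578 against 151 and 201 CPM, Rbp7 208 against 72.6 and 29.2 CPM, and Acer2 597 against 250 and 193 CPM. Of the lowest genes, Trpm3 and Pcdh7 were below both Tg female libraries there too, and Csmd1, Sgcd and Ank3 were not. None of the 6 rule genes was among the 60. Since Ccna2 goes against the label of this library and that of Tg female 1, these values compare labelled libraries and no genotype.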

How the data were processed

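The members and the gene lists were chosen with earlier results of these data known. The authors deposited whole-number UMI counts, one matrix of genes by barcodes per library, not normalized. Cell Ranger 7.0.0 and the build mm10 are named in the submitters' processing notes, and the cell-calling rule is not given in the sources used here. Each matrix lists 32285 genes. A library was used where its matrix and its barcode list had the same length.

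Counts were summed per library and class (python 3.11.15) and divided by the summed UMIs to give counts per 1e6 UMIs (CPM). Members against other endothelial nuclei, and the Cytl1 division, were described by ratios with no test, over genes with at least 20 CPM (50 for named genes and for the Cytl1 division). Sex was tested on the 4 Tg libraries with edgeR 4.0.16 (R 4.3.3) by the quasi-likelihood test, after filterByExpr and TMM scaling, with Benjamini-Hochberg adjustment over all genes at 0.05. The interaction used class, sex and library as a block. DESeq2 1.42.0 was an alternative. Of these fits, only the edgeR sex test in members was run on simulated sums, at a single fixed spread between libraries. The interaction and DESeq2 fits were not simulated. Doublets were scored with scrublet in scanpy 1.11.5 at an expected rate of 6% and removed in an alternative only; where the automatic threshold called under 0.5% of nuclei, the top 6% were taken. Intervals are exact binomial at 95% and, like the floor of 3 UMIs, cover counting error only.

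Genes were named by these rules: the examples and the 2-fold genes of the lists, the 15 highest and 15 lowest ratios, the 5 highest and 5 lowest sex and interaction differences among genes called with at least 10 CPM and no overlap, the 5 highest and 5 lowest nTg ratios, and the 5 genes most like the rule genes after thinning to 1000 UMIs. The genes of the Cytl1 division, those followed over the number of rule genes, Tmtc2 and Vwf were chosen after their values were seen. A gene that these rules name is not reported here. Gene positions come from GENCODE on GRCm38. Alternatives were other filters, scalings, rule limits and left-out libraries.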

Additional observations from a re-analysis of the deposited data

Results flagged for a closer look

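For 9 genes the difference between Tg females and Tg males in members departed from that in other endothelial nuclei, by the interaction term (edgeR, 2 libraries per sex). The gap between members and the others was smaller or more negative in Tg females for Ank2 (−1.44), Mgp (−1.29), Efna5 (−1.25), Fn1 (−1.23) and Mical2 (−1.11), each on the log2 scale. It was larger or less negative in Tg females for 9630028H03Rik (0.75), Adamts9 (1.15), A730049H05Rik (1.32) and Dach2 (6.69).

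Ank2 had 24.8, 61.1, 44.2, 55.1 and 70.5 CPM in members and 103, 173, 144, 70.3 and 66.7 CPM in the others, so its difference lay in the other nuclei. The transcript A730049H05Rik had 90.8, 179.7, 317, 78.3 and 110.2 CPM in members and 146, 207, 317, 248 and 250.5 CPM in the others, and 9630028H03Rik 428, 583, 778, 399 and 321 and 442, 588, 722, 625 and 532 CPM. Dach2 rested on 21 UMIs in members of Tg female 1 and on 126 UMIs in the other nuclei of Tg male 2, with 4.13, 25.7, 0, 1.45 and 1.24 CPM and 15.9, 4.45, 0.511, 2.76 and 52.2 CPM.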

How the results depend on the processing

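The sex difference in the share of members (0.924 points) turned to −0.776 with at least 3 rule genes and to −0.332 as a share of all nuclei, and leaving out 1 library gave −2.15 (without Tg male 1) to 3.997 (without Tg male 2). The 11 sex calls became 55 with at least 3 rule genes, 17 with doublets removed, 127 with no filter, 40 with at least 10 UMIs, 31 with DESeq2, 24 with 5 libraries and a genotype term and 6 without it. Leaving out 1 library gave 35 to 238, where the lone library is assumed to vary like the others. The 9 interaction calls became 16 with at least 3 rule genes, 5 at 1000 UMIs, 50 with no filter, 15 with at least 10 UMIs, 1 with DESeq2 and 13 to 58 with 1 library left out. The 297 genes apart from other endothelial nuclei (172 higher, 125 lower) became 638 at a ratio of 1.5 (303 and 335), 322 at 1000 UMIs (149 and 173, with 52 of the 61 genes named still apart) and 406 with at least 3 rule genes. The 60 nTg genes became 24 at 100 CPM, 12 against all 4 Tg libraries and 135 to 192 with 1 library left out.

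With the replicate number as a block, 22 genes were called between sexes; the numbers are shared labels only, both same-numbered pairs had a correlation of 0.1001, equal because each group has 2 libraries, and the crossed ones −0.1001, and they were not read as pairs. Among single genes, 530 ratio values stayed within the spread between libraries and 80 moved further. Of the interaction values, 76 kept their call and 21 lost it. Lost sex calls are given by gene, and 0 of all these values changed sign. With the nTg female library added and no genotype term, Tgfb2, Fkbp5, Zbtb16, Nav2 and Rgcc were not called. DESeq2 did not call Tgfb2, Kdm5d, Eif2s3y or Ddx3y. Nav2 and Kdm5d were not called at 1000 UMIs, and Rgcc was not called without Tg male 2. Among interactions, Dach2 was lost without Tg female 1 (1.42, adjusted p = 0.999) and without Tg male 2 (3.22, adjusted p = 0.835), Fn1 without Tg female 2 (−1.06, adjusted p = 0.0555), 9630028H03Rik without Tg female 2 (0.69, adjusted p = 0.160), Ank2 without Tg female 2 (−1.36) or Tg male 2 (−1.22), by edgeR. With the rule at 1000 UMIs, Mgp (−0.52), Efna5 (−0.78), Fn1 (−0.93), 9630028H03Rik (0.81) and Ank2 (−0.67) were not called, nor was Ank2 with at least 3 rule genes or with doublets removed. DESeq2 called Efna5 alone. The cause was not tested. The 172 genes of the Cytl1 division were added after seeing the data and became 338 at a ratio of 1.5, 134 at 100 CPM and 186 to 221 with 1 library left out. Median depths of 1848 to 2611 UMIs per member leave rare transcripts undetected in single nuclei.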
